A study of Caenorhabditis elegans with 8 samples.

Results

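The 10 genes described here are skr-1, skr-2, skr-3, skr-4, skr-5, skr-7, skr-8, skr-9, skr-10 and skr-13 of Caenorhabditis elegans, which encode relatives of the ubiquitin ligase subunit SKP1. They were picked by symbol from 46748 genes with a row in the count table, and all 10 have a row. Another 10 skr genes have a row and serve as the comparison within the family. The choice was made with the read counts of these libraries already known, and which values entered it is not recorded. The levels and differences of the 10 genes are therefore given as a description, and a call among them is not independent support.

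Total RNA of whole worms was sequenced, and all 8 libraries share the N2 background, the usual wild type of the field. Of these, 3 came from animals fed an hlh-2 RNAi plasmid, 3 from animals fed a lin-32 RNAi plasmid, and 2 from animals fed the empty plasmid L4440. HLH-2 and LIN-32 are basic helix-loop-helix transcription factors, and the series title asks how impairing each changes expression across the genome. The labels state neither age nor stage, nor whether replicates were separate cultures, so p-values here cover library-to-library spread that may be purely technical.

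The deepest library, replicate 2 of lin-32 RNAi, held 34814808 counts and the shallowest, replicate 1 of L4440, 22380739. Levels are given as CPM, each count divided by the library's total over the genes tested and a TMM scaling factor and expressed on the usual CPM scale. The targeted hlh-2 gene had 49.0, 48.9 and 53.95 CPM in hlh-2 RNAi, 23.0, 27.8 and 15.6 CPM in lin-32 RNAi, and 50.6 and 49.0 CPM in L4440. It was thus not lower under its own label. The names "hlh-2 RNAi" and "lin-32 RNAi" below therefore mean the libraries labelled so, and directions are between libraries as labelled. The lin-32 gene had 2.41, 3.40 and 2.06 CPM in hlh-2 RNAi and 0.977, 0.678 and 0.764 CPM in lin-32 RNAi. In L4440 it had 1.496 and 1.416 CPM, so it was lowest under its own label. In the edgeR test of lin-32 RNAi over L4440, hlh-2 was lower (log2 fold change -1.16 ± 0.15, SE, adjusted p = 0.0041). There lin-32 did not pass (-0.86 ± 0.29, SE, adjusted p = 0.233). In hlh-2 RNAi over L4440 neither gene passed (hlh-2 0.025, lin-32 0.85, edgeR adjusted p = 0.990 and 0.456). Both were higher in hlh-2 RNAi than in lin-32 RNAi (1.19 and 1.71, edgeR adjusted p = 0.0017 and 0.0067). The part of either gene in the skr values was not tested. The neuron, muscle, intestine, hypodermis and germline marker lists each had a higher summed CPM in every library than the sperm list, which summed to 0.462 to 1.46 CPM. Not every marker was detected in every library, since the hypodermis marker rol-6 had 0 counts in lin-32 RNAi replicate 3.

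SKP1 is the adaptor of SCF ubiquitin ligases. It holds an F-box protein, which binds the substrate, to a cullin, which carries the RING subunit and through it the ubiquitin-conjugating enzyme. Yeast and humans use a single main SKP1, whereas C. elegans has a large family of SKP1-related (skr) genes. SKR-1 and SKR-2 bind the cullin CUL-1 and are needed in the embryo, where their loss leads to extra cell divisions. SKR-3, SKR-4 and SKR-5 act with the cullin CUL-6 in the intracellular pathogen response, a program induced by microsporidia and virus. Knockdown of skr-7, skr-8, skr-9 or skr-10 disturbs larval growth and body shape.

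The 10 genes lie on 3 chromosomes, and 6 of them have another skr gene close by. On the WBcel235 assembly skr-2 (chromosome I, 9469654 to 9470637) and skr-1 (9471550 to 9472641) follow each other on the plus strand with 912 bases between them. On chromosome IV skr-13 (17162097 to 17162615, minus strand), skr-9 (17163573 to 17164157, plus strand), skr-8 (17165250 to 17165834, minus strand) and skr-12 (17167274 to 17167792, plus strand) form a run of 5.7 kb. On chromosome V skr-14 (4421069 to 4421575, minus strand) and skr-7 (4422427 to 4423011, plus strand) stand 851 bases apart, head to head. The remaining 4 genes stand alone. They are skr-10 (chromosome IV, 15946807 to 15947385) and, on chromosome V, skr-3 (16121084 to 16122649), skr-5 (17347902 to 17348723) and skr-4 (19924224 to 19925033), all on the plus strand. All are annotated as protein coding. In the annotation skr-7, skr-8, skr-9, skr-10 and skr-13 consist of 1 exon, and skr-1, skr-2, skr-3, skr-4 and skr-5 have at least 3. An exon of skr-5 overlaps lsy-27 on the other strand, from which an unstranded library cannot tell it apart. The exon of skr-13 overlaps the piRNA gene 21ur-14953 on the same strand.

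The 10 genes spanned a wide range of levels, led by the essential pair. Per kb of exon, skr-1 averaged 303.8 ± 8.47 CPM per kb over the 8 libraries (SD) and skr-2 279.0 CPM per kb. Their ranges overlapped, from 291.9 to 317.1 for skr-1 and from 265.4 to 296.1 for skr-2. The third was skr-7 at 131.9 ± 15.8 CPM per kb, below skr-2 and above every other gene of the 10 in any library. Below it followed skr-8 at 44.1, skr-10 at 38.8, skr-9 at 36.9, skr-3 at 34.3, skr-13 at 27.3 and skr-4 at 24.4 CPM per kb. In this stretch each gene's range overlapped that of the next one down. The lowest was skr-5 at 0.349 ± 0.190 CPM per kb, with 2 to 13 counts in a library. It passed the filter on low counts narrowly, so its values carry wide counting error.

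**Figure D1:**
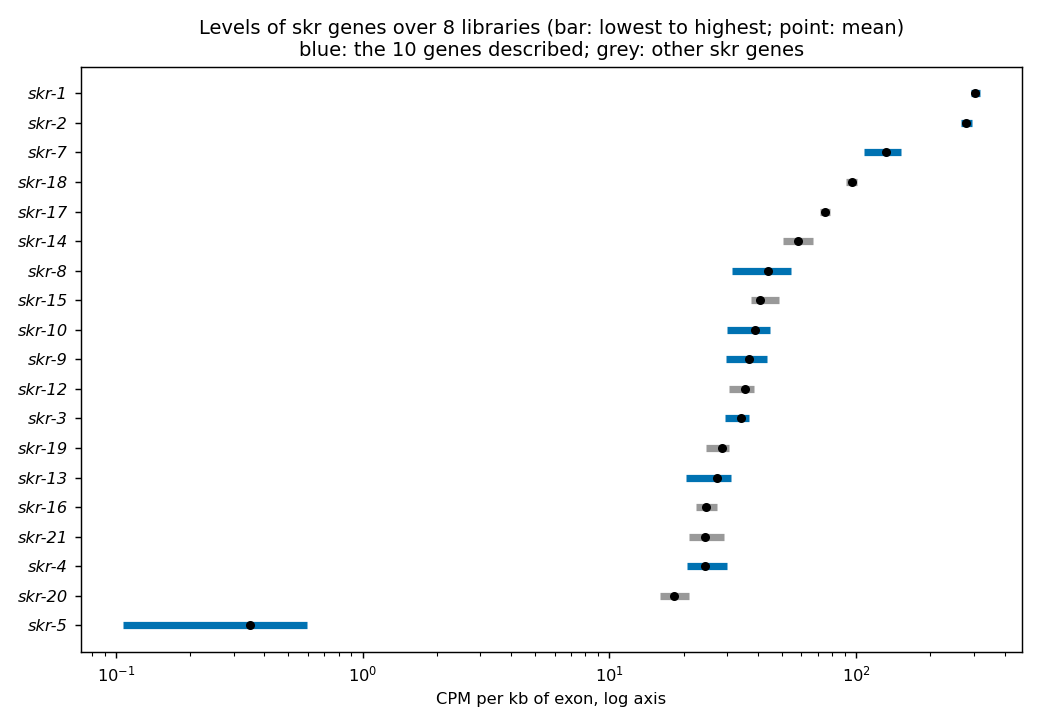
Level of each skr gene in CPM per kb of exon on a log axis, with a bar from the lowest to the highest of the 8 libraries and a point at the mean; blue marks the 10 genes described and grey the others, and skr-6, with 0 or 1 count in any library, is left out. The essential pair skr-1 and skr-2 lies at 303.8 and 279.0 CPM per kb, skr-7 at 131.9, and skr-5 far below the rest at 0.349.

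Among the other skr genes, skr-18 at 96.1 and skr-17 at 74.7 CPM per kb stood between skr-7 and the lower genes. The remaining ones ran from 18.4 CPM per kb for skr-20 to 58.3 for skr-14, except skr-6, which had 0 or 1 count in any library. Of the 20 skr genes, skr-1, skr-2 and skr-7 were the 3 highest per kb, and skr-5 was the lowest but for skr-6.

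The essential genes skr-1 and skr-2 varied little. The skr-1 gene had 251.9, 259.9 and 273.7 CPM in the hlh-2 RNAi libraries, 255.7, 256.8 and 265.3 CPM in the lin-32 RNAi libraries, and 266.6 and 267.7 CPM in L4440. The coefficient of variation over the 8 libraries was 2.79%. The skr-2 gene had 201.2, 207.5 and 220.0 CPM in hlh-2 RNAi, 208.0, 206.7 and 205.2 CPM in lin-32 RNAi, and 218.7 and 224.4 CPM in L4440. All lin-32 RNAi libraries lay below both controls for either gene, by small amounts, while those of hlh-2 RNAi overlapped the controls. The log2 fold changes of skr-1 were -0.03 ± 0.04 for hlh-2 RNAi over L4440 and -0.04 ± 0.04 for lin-32 RNAi over L4440 (SE). Those of skr-2 were -0.08 ± 0.04 and -0.10 ± 0.04 (SE) in the same order.

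The pair encodes close relatives, and the labels do not say how reads matching both were counted. The ratio of skr-1 to skr-2 counts, which no scaling of libraries can move, was 1.244 to 1.253 in hlh-2 RNAi, 1.230 to 1.293 in lin-32 RNAi, and 1.193 and 1.219 in L4440. Its lowest values were those of the L4440 libraries. Neither gene passed the genome-wide test in any comparison, and nor did their summed counts.

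The genes of the CUL-6 ligase, skr-3 and skr-4, had positive log2 values in lin-32 RNAi over L4440, 0.08 ± 0.09 and 0.23 ± 0.12 (SE), neither past the test. The skr-3 gene had 28.8, 26.4 and 23.1 CPM in hlh-2 RNAi, 28.1, 28.9 and 27.2 CPM in lin-32 RNAi, and 25.1 and 28.0 CPM in L4440, with all groups overlapping. The skr-4 gene had 17.9, 17.4 and 14.1 CPM in hlh-2 RNAi, 20.5, 16.95 and 15.97 CPM in lin-32 RNAi, and 15.6 and 14.7 CPM in L4440. Here all lin-32 RNAi libraries lay above both controls, the opposite side from skr-1, and the hlh-2 RNAi libraries overlapped them. For hlh-2 RNAi over L4440 the log2 fold change of skr-4 was 0.12 ± 0.12 (SE), which did not pass either. The third gene of that ligase, skr-5, had 7, 7 and 9 counts in hlh-2 RNAi, 2, 13 and 2 in lin-32 RNAi, and 8 and 4 in L4440. Its largest log2 value, -0.43 ± 0.71 (SE) for lin-32 RNAi over L4440, is smaller than its error, so no difference of skr-5 was detectable at this depth.

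In each of the single-exon genes skr-7, skr-8, skr-9, skr-10 and skr-13 all lin-32 RNAi libraries lay below both controls, as they did in 15.4% of all genes, and of these 5 skr-7 and skr-8 passed the test. Grouping them by exon number was done after their values had been seen. How reads matching several of these genes were counted is not stated either, so their values may not be separate measurements. Their summed CPM was 151.1, 173.6 and 180.6 in hlh-2 RNAi, 126.9, 148.7 and 143.1 in lin-32 RNAi, and 185.8 and 179.9 in L4440. That sum was not tested, and nor was the part of shared reads in the differences. The skr-7 gene had 73.4, 81.0 and 85.8 CPM in hlh-2 RNAi, 63.2, 71.6 and 68.8 CPM in lin-32 RNAi, and 89.4 and 84.3 CPM in L4440. In skr-7 the lin-32 RNAi libraries also lay below every hlh-2 RNAi library, and those of hlh-2 RNAi overlapped L4440. The skr-8 gene had 23.8, 28.3 and 28.2 CPM in hlh-2 RNAi, 18.3, 23.9 and 21.3 CPM in lin-32 RNAi, and 30.7 and 31.9 CPM in L4440. For skr-8 both RNAi groups lay below the controls in every library, hlh-2 RNAi by less, and the RNAi groups overlapped each other by a narrow margin.

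The neighbour skr-9 had 19.6, 23.5 and 24.6 CPM in hlh-2 RNAi, 17.3, 19.7 and 18.5 CPM in lin-32 RNAi, and 25.5 and 24.1 CPM in L4440. The skr-10 gene, more than a megabase away on the same chromosome, had 20.98, 24.6 and 25.8 CPM in hlh-2 RNAi, 17.4, 21.2 and 20.7 CPM in lin-32 RNAi, and 24.9 and 24.0 CPM in L4440. For skr-9 and skr-10 the hlh-2 RNAi libraries overlapped both other groups. The skr-13 gene had 13.3, 16.2 and 16.2 CPM in hlh-2 RNAi, 10.6, 12.4 and 13.9 CPM in lin-32 RNAi, and 15.2 and 15.7 CPM in L4440, with the same pattern of overlap. Replicate 1 was the lowest library of its group for each of these 5 genes in hlh-2 RNAi, and likewise in lin-32 RNAi.

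**Figure D2:**
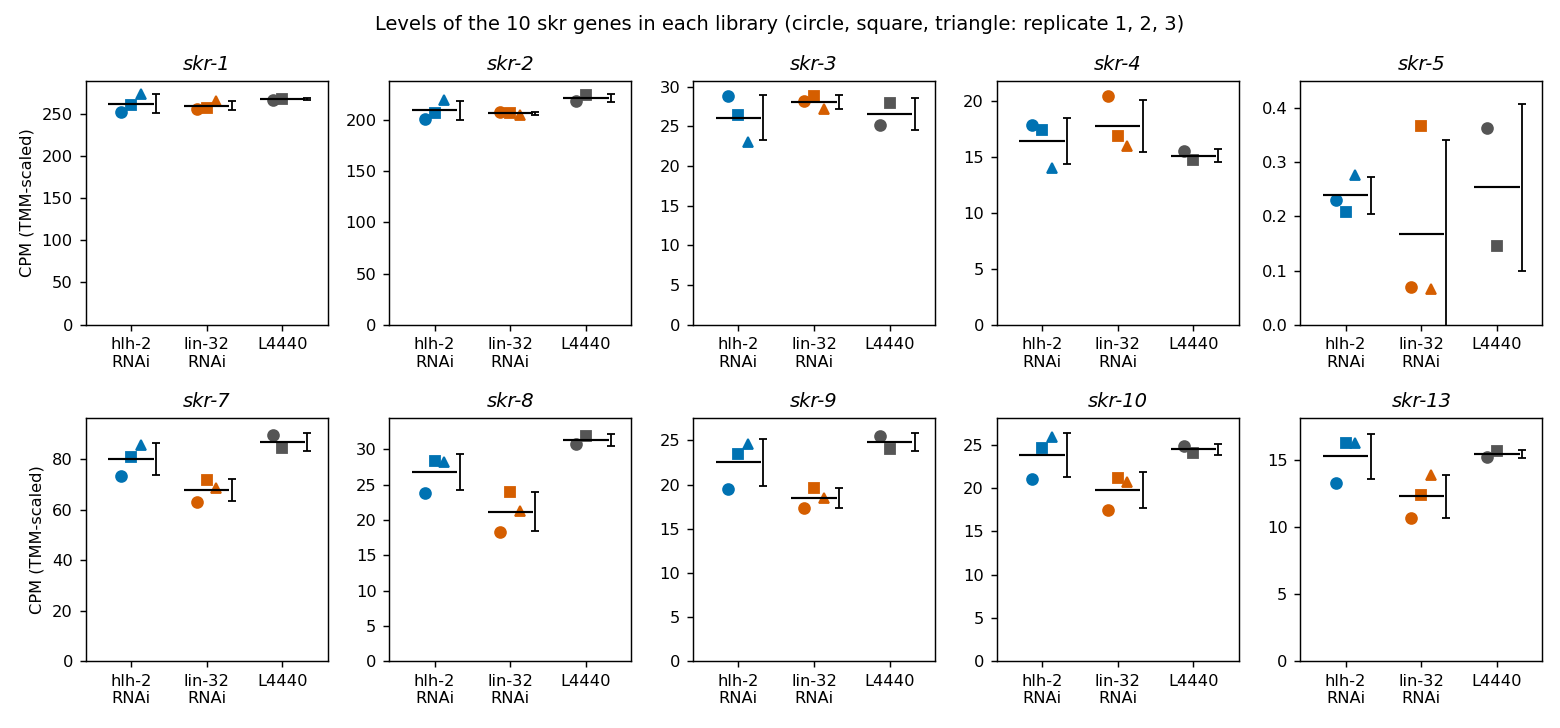
CPM of each of the 10 genes in every library, with 3 hlh-2 RNAi, 3 lin-32 RNAi and 2 L4440 libraries; symbols give the replicate, the horizontal line the group mean and the bar its SD, which for skr-5 in lin-32 RNAi runs below the axis. In the lower row (skr-7, skr-8, skr-9, skr-10, skr-13) all lin-32 RNAi libraries sit below both L4440 libraries. In the upper row those of skr-1 and skr-2 also sit below them, by small amounts, those of skr-4 sit above, and those of skr-3 and skr-5 overlap.

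Between lin-32 RNAi and L4440, log2 fold changes were -0.56 ± 0.10 for skr-8, -0.42 ± 0.09 for skr-9, -0.35 ± 0.07 for skr-7, -0.33 ± 0.12 for skr-13 and -0.30 ± 0.10 for skr-10 (SE). The skr-8 level was thus 0.679 times that of L4440 and the skr-10 level 0.810 times. In the edgeR quasi-likelihood test with Benjamini-Hochberg adjustment over the 14272 genes tested, 2 of the 10 genes passed, skr-8 (adjusted p = 0.0263) and skr-7 (adjusted p = 0.0295), both lower. Of all genes 0.743% passed in this comparison, 0.533% as lower and 0.21% as higher. An unadjusted p under 0.05 was found in 6 of the 10 genes (skr-2, skr-7, skr-8, skr-9, skr-10 and skr-13) and 12.6% of all genes. The next were skr-9 (adjusted p = 0.0624), skr-10 (adjusted p = 0.215) and skr-13 (adjusted p = 0.258), which did not pass. The 2 groups stood apart, with no overlap, in 8 of the 10 genes and 29.8% of all genes. In 7 of the 10 genes all lin-32 RNAi libraries lay below L4440, as they did in 15.4% of all genes, and in 1 they lay above, as in 14.4% of all genes. The median log2 fold change over the 10 genes was -0.32, beside 0.00147 over all genes tested, and 8 of the 10 were below 0, as were 49.4% of all genes.

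Both calls depended on single libraries. That of skr-8 was lost without L4440 replicate 1 (-0.59, edgeR adjusted p = 0.157), L4440 replicate 2 (-0.53, adjusted p = 0.241), or replicate 1 or 3 of lin-32 RNAi (-0.47 and -0.56, adjusted p = 0.0503 and 0.0735). That of skr-7 was lost without the same libraries (-0.31, -0.40, -0.30 and -0.36, edgeR adjusted p = 0.252, 0.142, 0.0729 and 0.0702) or replicate 2 of hlh-2 RNAi (-0.35, adjusted p = 0.0580). The sign of either value was the same in all 17 alternatives run. The skr-9 gene passed with DESeq2 (-0.42, adjusted p = 0.0106) and, with edgeR, when the 2 groups were fitted alone (-0.42, adjusted p = 0.0204) or when hlh-2 RNAi replicate 1 or replicate 3 was dropped (-0.42 each, adjusted p = 0.0124 and 0.0428).

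Between hlh-2 RNAi and L4440 the same 5 single-exon genes had log2 fold changes of -0.22 ± 0.10 for skr-8, -0.13 ± 0.09 for skr-9, -0.12 ± 0.07 for skr-7, -0.04 ± 0.10 for skr-10 and -0.02 ± 0.11 for skr-13 (SE). None of the 10 genes passed with edgeR (lowest adjusted p = 0.724), DESeq2 or limma-voom, and 1, skr-8, had an unadjusted p under 0.05. Of all genes 0.203% passed here, 0.049% as higher and 0.154% as lower, and 6.78% had an unadjusted p under 0.05. In skr-8 alone of the 10 was there no overlap of libraries, on the lower side, as in 12.2% of all genes, with 11.9% on the higher side and 24.1% in all. Their median log2 fold change was -0.03, beside -0.00068 over all genes, and 9 were below 0, as were 50.3% of all genes. This comparison and the previous one share both L4440 libraries, so the values of the 2 comparisons are not independent of each other.

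In the direct comparison L4440 is on neither side, though its libraries enter the filter, scaling and dispersions of the shared fit. The RNAi libraries are the same as in the comparisons with L4440, so the values are not independent of those either. The log2 difference of hlh-2 RNAi over lin-32 RNAi was 0.33 ± 0.09 for skr-8, 0.31 ± 0.10 for skr-13, 0.29 ± 0.08 for skr-9, 0.27 ± 0.09 for skr-10 and 0.24 ± 0.06 for skr-7 (SE). For skr-1 and skr-2 the difference was 0.01 ± 0.04 and 0.02 ± 0.04, for skr-3 and skr-4 -0.11 ± 0.07 and -0.11 ± 0.10 (SE). None of the 10 genes passed with edgeR (lowest adjusted p = 0.139, skr-7) or limma-voom, and 5 had an unadjusted p under 0.05. DESeq2 called 1, skr-7 (adjusted p = 0.0294). Of all genes 0.406% passed, 0.294% as higher and 0.112% as lower, and 7.97% had an unadjusted p under 0.05. In skr-7 alone of the 10 the groups did not overlap, with hlh-2 RNAi higher, as in 6.81% of all genes, with 6.87% on the lower side and 13.7% in all. Below 0 were 2 of the 10, skr-3 and skr-4, and 50.7% of all genes. The replicate numbers may pair these 6 libraries. With the number as a block edgeR called 2 of the 10 genes, skr-7 (0.24 ± 0.05, adjusted p = 0.0433) and skr-8 (0.34 ± 0.06, adjusted p = 0.0275). That fit held all 8 libraries, including those of L4440, whose numbers did not pair with the others.

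Ratios of raw counts give the same contrast within a library, free of scaling. The ratio of skr-7 to skr-1 counts averaged 0.305 ± 0.0121 in hlh-2 RNAi (SD, n = 3), 0.262 ± 0.0162 in lin-32 RNAi (SD, n = 3) and 0.325 ± 0.0145 in L4440 (SD, n = 2). It was 0.247, 0.279 and 0.259 in the lin-32 RNAi libraries, each below all 5 others, of which the lowest was 0.292. The ratio of skr-8 to skr-1 averaged 0.102 ± 0.00733 in hlh-2 RNAi (SD, n = 3), 0.0817 ± 0.0108 in lin-32 RNAi (SD, n = 3) and 0.117 ± 0.00277 in L4440 (SD, n = 2).

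**Figure D3:**
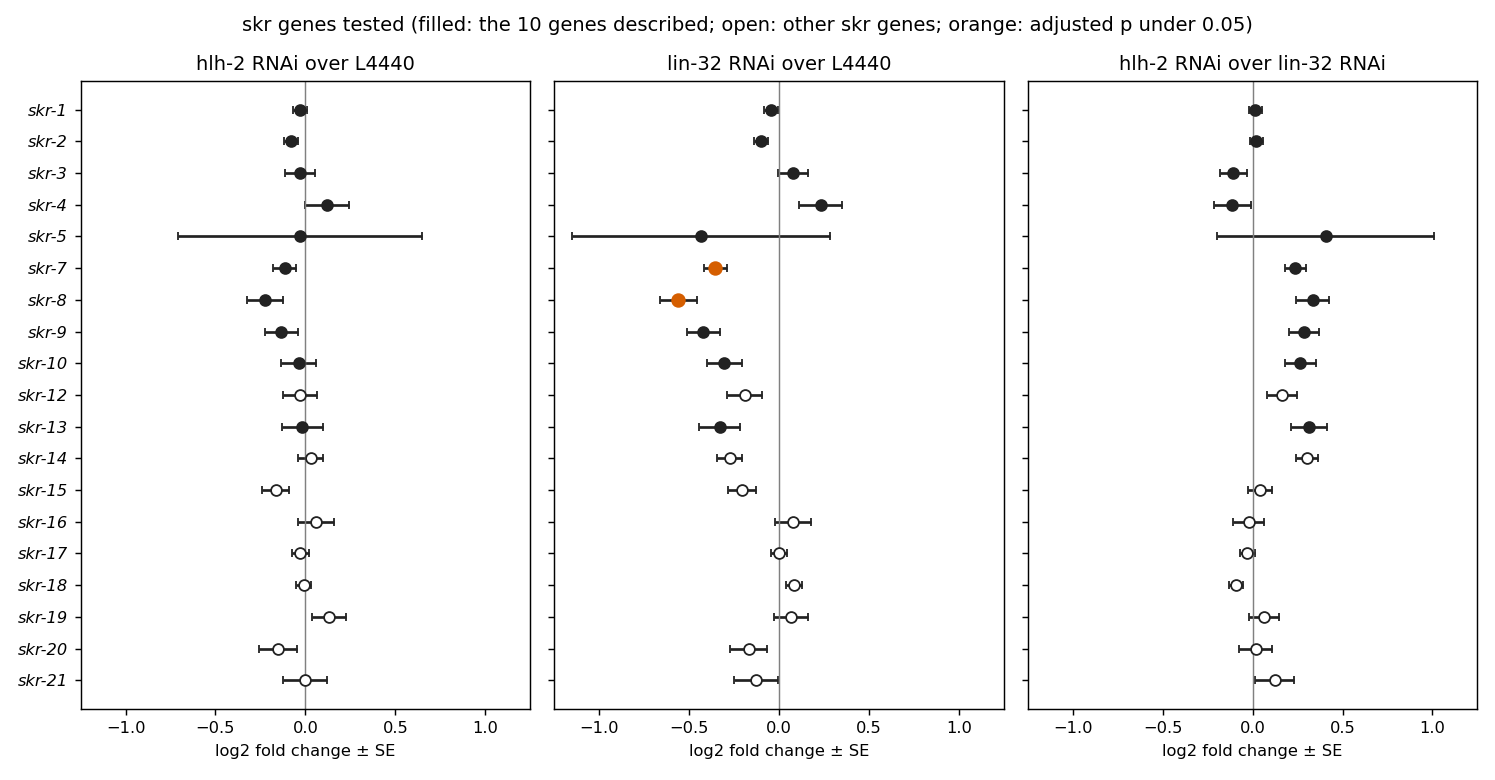
Log2 fold change with its SE for the 19 skr genes tested, in hlh-2 RNAi over L4440, lin-32 RNAi over L4440 and hlh-2 RNAi over lin-32 RNAi; filled points are the 10 genes described, open points other skr genes, and orange points passed the edgeR test. In the middle panel skr-7 to skr-10 and skr-13 lie between -0.56 and -0.30, skr-1 and skr-2 at -0.04 and -0.10, and skr-4 at 0.23.

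Other skr genes near the members were examined next. Head to head with skr-7, skr-14 had 28.7, 33.9 and 33.3 CPM in hlh-2 RNAi, 25.6 to 26.2 CPM in the lin-32 RNAi libraries, and 31.6 and 31.2 CPM in L4440. All of its lin-32 RNAi libraries lay below all others. Its log2 value was -0.27 ± 0.07 for lin-32 RNAi over L4440 (SE, edgeR adjusted p = 0.107) and 0.30 ± 0.06 for hlh-2 RNAi over lin-32 RNAi (SE, edgeR adjusted p = 0.0624), neither past the test, though with the replicate block the second passed. The last gene of the chromosome IV run, skr-12, had -0.19 ± 0.10 for lin-32 RNAi over L4440 (SE, edgeR adjusted p = 0.439), with groups overlapping. The remaining single-exon genes skr-15, skr-20, skr-21, skr-19 and skr-16 had log2 values of -0.21, -0.17, -0.13, 0.07 and 0.08 there, and skr-17 and skr-18, which have introns, 0.00062 and 0.08. All lin-32 RNAi libraries lay below L4440 in 4 of the 9 other skr genes tested, skr-14, skr-15, skr-20 and skr-21, beside 15.4% of all genes. In 1, skr-18, they lay above, beside 14.4% of all genes.

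None of the 9 other skr genes tested passed in either comparison with L4440, with edgeR, DESeq2 or limma-voom. At an unadjusted p under 0.05 there were 0 for hlh-2 RNAi, beside 6.78% of all genes, and 2 for lin-32 RNAi, beside 12.6% of all genes. Between hlh-2 RNAi and lin-32 RNAi edgeR and limma-voom called 0, DESeq2 called 1, and 2 had an unadjusted p under 0.05, beside 7.97% of all genes. Over all 12 single-exon skr genes the median log2 fold change for lin-32 RNAi over L4440 was -0.24, with 10 below 0, and over the 7 tested with introns it was 0.00062, with 3 below 0, beside 49.4% of all genes. This split by exon number was drawn after the values had been seen and was not tested.

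**Figure D4:**
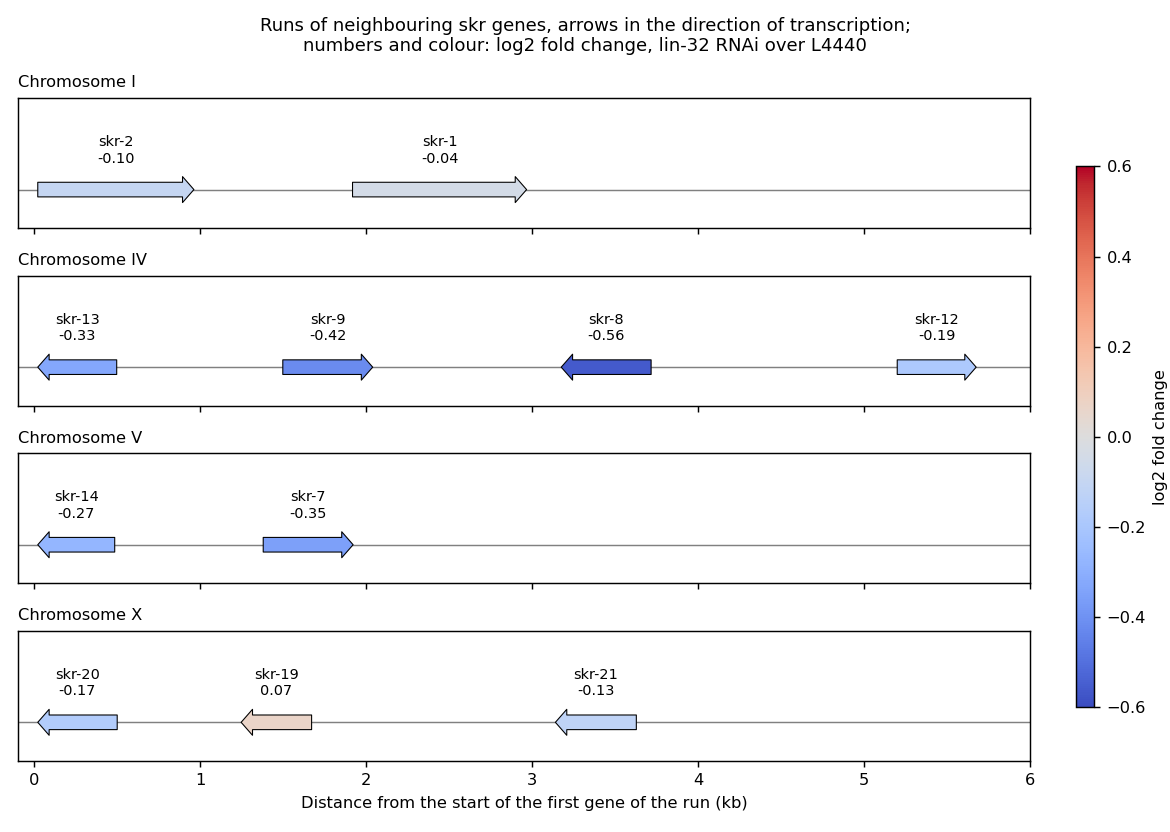
The 4 runs of neighbouring skr genes drawn to scale in kb from the start of the first gene, with arrows in the direction of transcription and coloured by the log2 fold change of lin-32 RNAi over L4440, which is also printed. The genes of the chromosome IV run lie between -0.56 and -0.19 and those of chromosome V at -0.27 and -0.35, while the chromosome I pair lies at -0.10 and -0.04 and the chromosome X run between -0.17 and 0.07.

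Neighbours outside the family were looked at after these values were known. The nearest protein-coding genes to the chromosome IV run are Y116A8C.40, 11.12 kb to the left and too low to test, and C52D10.3, 8.68 kb to the right, where lin-32 RNAi over L4440 gave 0.08 ± 0.15 (log2, SE) at an edgeR adjusted p = 0.890. Both neighbours of the skr-14 and skr-7 pair were too low to test.

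No call was made among genes for partners of the skr proteins. Of 81 names in 6 lists (cullin ligase subunits, neddylation and COP9 signalosome, F-box receptors, their substrates, intracellular pathogen response, proteasome) 73 were tested. None passed in any of the 3 comparisons with edgeR, DESeq2 or limma-voom, and 2, 5 and 4 had an unadjusted p under 0.05 for hlh-2 RNAi over L4440, lin-32 RNAi over L4440 and hlh-2 RNAi over lin-32 RNAi, beside 6.78%, 12.6% and 7.97% of all genes. Their median log2 value for lin-32 RNAi over L4440 was -0.00267. Among cullin ligase subunits, the elongin B gene elb-1 had 0.12 ± 0.05 (SE) and cul-4, a cullin gene whose product limits DNA replication, -0.07 ± 0.04 (SE), and cul-1 itself had -0.05 ± 0.04 (SE). Of the neddylation and signalosome genes csn-4 had 0.08 ± 0.04 (SE) and csn-3 0.06 ± 0.04 (SE).

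F-box receptor genes included mec-15, needed for touch neuron function, at 0.08 ± 0.03, and fbxl-1 at -0.10 ± 0.05 (log2, SE, lin-32 RNAi over L4440). Among known substrates the beta-catenin gene bar-1, a target of LIN-23, had 0.33 ± 0.11 and the cyclin-dependent kinase inhibitor gene cki-1 -0.32 ± 0.13 (log2, SE). These were the most extreme values of the 6 lists in this comparison and did not pass (edgeR adjusted p = 0.249 and 0.329). In the pathogen response list, where 5 genes were high enough to test, rcs-1 had 0.18 ± 0.12 and cul-6, the cullin partner of SKR-3, SKR-4 and SKR-5, 0.13 ± 0.14 (log2, SE). The proteasome subunit gene with the smallest p was pbs-1 at 0.28 ± 0.10 (log2, SE, edgeR adjusted p = 0.259), followed by pbs-2 at 0.08 ± 0.04 (log2, SE).

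Markers of tissues were set beside the skr values, since in whole animals fewer cells of a type and less RNA per cell cannot be told apart. The 8 germline markers summed to 3343 to 3410 CPM in hlh-2 RNAi, 3251 to 3442 CPM in lin-32 RNAi, and 3514 to 3519 CPM in L4440, so both RNAi groups lay below the controls. All 8 germline genes were below 0 in hlh-2 RNAi over L4440, with a median log2 fold change of -0.05, beside 50.3% of all genes. None of them passed there with edgeR, DESeq2 or limma-voom, and 1 had an unadjusted p under 0.05, beside 6.78% of all genes. In lin-32 RNAi over L4440 all 8 were below 0 as well, beside 49.4% of all genes, with a median log2 fold change of -0.06, led by the RNA helicase gene glh-1 at -0.20 ± 0.06 and the P granule gene pgl-1 at -0.12 ± 0.04 (SE). None of the 8 passed with edgeR or limma-voom, DESeq2 called 1, and 3 had an unadjusted p under 0.05, beside 12.6% of all genes. The 8 oocyte and early embryo markers summed to 7413 to 7484 CPM in hlh-2 RNAi, 7334 to 7728 CPM in lin-32 RNAi, and 7477 to 7732 CPM in L4440.

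Sums for the intestine were 416.6 to 445.5 CPM in hlh-2 RNAi, 411.5 to 470.6 CPM in lin-32 RNAi and 410.6 to 428.2 CPM in L4440, and for neurons 233.6 to 240.5, 232.0 to 241.2 and 227.4 to 232.8 CPM in the same order. Muscle markers summed to 786.8 to 850.9 CPM in hlh-2 RNAi, 815.5 to 861.3 CPM in lin-32 RNAi and 826.1 to 847.9 CPM in L4440, and those of the hypodermis to 259.2 to 278.0, 270.1 to 287.1 and 271.6 to 283.0 CPM. Such sums follow their most abundant genes, with averages of 379.9 CPM for unc-54 (muscle), 182.7 for snb-1 (neurons) and 138.8 for lin-26 (hypodermis). Scarcer markers, such as hlh-1 of muscle at 3.36 CPM, hardly enter them. The collagen gene rol-6 had 15, 14 and 18 counts in hlh-2 RNAi, 4, 1 and 0 in lin-32 RNAi, and 19 and 19 in L4440. It fell in lin-32 RNAi over L4440 (log2 fold change -3.75 ± 0.59, SE, edgeR adjusted p = 0.0122). There 4 of 6 hypodermis and 4 of 6 muscle markers were below 0, beside 49.4% of all genes. Unadjusted p was under 0.05 in 1 and 3 of these, beside 12.6% of all genes. The muscle markers myo-3, a myosin gene, and hlh-1 had -0.225 ± 0.049 and -0.509 ± 0.188 (log2, SE), neither past the test. On the other side unc-15 had 0.07 ± 0.04 and elt-3 0.25 ± 0.12 (log2, SE). Both rol-6 and myo-3 were higher in hlh-2 RNAi than in lin-32 RNAi (3.10 ± 0.58 and 0.24 ± 0.04, SE, edgeR adjusted p = 0.0403 and 0.0309). In that comparison 4 of 6 muscle and 3 of 6 hypodermis markers were below 0, among them the paramyosin gene unc-15 at -0.08 ± 0.04 and the collagen gene col-19 at -0.12 ± 0.05 (log2, SE), neither past the test. The part of tissue makeup in the skr values was not tested.

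Genes with a like pattern were sought among all genes tested, by Pearson correlation of log2 CPM over the 8 libraries. The likeness is a description over libraries that share groups and depth, with no p. For skr-8, whose log2 CPM varied most among members averaging at least 5 CPM, the 3 most alike were dsl-1, which encodes a Notch ligand of the DSL family (Pearson r 0.994, Spearman rho 0.952), C05D12.4 (0.972) and jbts-14 (0.970), the last at 0.267 CPM on average. For skr-1, the highest per kb, they were calu-1, a calumenin gene (0.994), F38E9.6 (0.966) and W06H8.5 (0.956). The SD of log2 CPM over the 8 libraries was 0.275 for skr-8 and 0.0402 for skr-1, so the likeness of skr-1 rests on very small differences. Each set holds the highest correlations among the 14272 genes tested.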

How the data were processed

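The authors deposited raw counts for each WormBase gene and library. The submitters' processing notes name featureCounts 1.4.6-p4, TopHat2 2.1.0, bcl2fastq 1.8.4 and WBcel235. How strand, shared reads and gene overlaps were handled, and with which annotation, is not stated there. Per the labels' protocols libraries were made with TruSeq RNA v2, which does not mark strand. Symbols matched 43693 of 46748 IDs. Coordinates and exon lengths came from release 115 of the WBcel235 annotation. Sequences were not used here.

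Counts were tested in R 4.3.3 with edgeR 4.0.16: filterByExpr by group (14272 genes), TMM, and 1 quasi-likelihood fit of all 8 libraries with group as the only term, Benjamini-Hochberg adjustment and a threshold of 0.05. Standard errors come from the F statistic. CPM use TMM-scaled totals of the genes tested. Alternatives were DESeq2 1.42.0, limma-voom (limma 3.58.1), other scalings and filters, a replicate block, the 2 groups alone, each library left out, and skr-1 with skr-2 summed. The steps were tested on simulated data with changes larger than those of the skr genes, so recovery of changes as small as these was not tested. No 2 replicates were copies: their counts differed by a chi-square over its degrees of freedom of at least 5.58.

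Equal replicate numbers of hlh-2 RNAi and lin-32 RNAi deviated together weakly (r 0.265, 0.194 and 0.191), so they may pair these 6 libraries. That comes from the data. L4440 numbers did not pair.

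The members, lists and tests were chosen with earlier results of these data known. Named are all skr genes, the targeted genes, list members past the threshold and up to 2 more with the smallest p, and the 3 genes most like 2 members. Cul-1, unc-15, unc-54, hlh-1, col-19, lin-26, elt-3, snb-1, C52D10.3 and Y116A8C.40 were named after their values were seen. The list names skr-11, arf-1.1 and opt-2 matched no symbol.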

Additional observations from a re-analysis of the deposited data

How the results depend on the processing

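With DESeq2 49 genes passed between hlh-2 RNAi and L4440, 177 between lin-32 RNAi and L4440 and 91 between hlh-2 RNAi and lin-32 RNAi, against 29, 106 and 58 with edgeR. Without a filter on low counts the numbers were 223, 610 and 342. With the replicate block they were 72, 350 and 132. With 1 library left out they ran from 3 to 31, 17 to 157 and 25 to 93. None of the 10 skr genes passed between hlh-2 RNAi and L4440 under any alternative. Between lin-32 RNAi and L4440 the number called, 2 in the main test, was 5 without a filter and 5 with the replicate block (skr-7, skr-8, skr-9, skr-10 and skr-13 both times, the last 3 at adjusted p = 0.016, 0.0368 and 0.0309 under the edgeR block), and 0 to 3 with 1 library left out, being 0 when either L4440 library, lin-32 RNAi replicate 1 or lin-32 RNAi replicate 3 was dropped, and 1 when hlh-2 RNAi replicate 2 was. Between hlh-2 RNAi and lin-32 RNAi it was 0 in the main test, 1 with DESeq2, 5 without a filter, 2 with the replicate block and 0 to 2 with 1 library left out. The cause of these shifts was not tested. The replicate block also matched L4440 libraries to RNAi libraries of equal number, a pairing that the counts did not show. Neither skr-7 nor skr-8 changed sign between lin-32 RNAi and L4440 under any of 17 alternatives. With 2 controls, and 2 to 13 counts of skr-5 in a library, small differences could not be detected. Leaving out 1 control assumes that the other varies like the RNAi groups.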
